A study of Mus musculus with 18 samples.

Results

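Mt2 and Prdx2, a metallothionein and a peroxiredoxin gene that act in the protection of cells against metals and peroxides, were followed over 6 days of induced differentiation in murine erythroleukemia (MEL) cells. MEL is an established mouse line of virus-transformed erythroid precursors, and hexamethylene bisacetamide (HMBA) makes it differentiate toward hemoglobin-producing cells. The genes were taken by their symbols in the platform annotation, which gave 1 probe each, so that 2 of 5974 named genes and 2 of the 6868 probes were described on all 18 arrays. Each array set 2 RNA preparations against each other in a 2-colour hybridisation, with RNA of a given day after HMBA in channel 1 and RNA of uninduced MEL cells in channel 2. Day 0 arrays held uninduced RNA in both channels. Series A had 1 array for each of days 0, 1, 2, 3, 4, 5 and 6, and series B had 1 for each of days 0, 2, 3, 4, 5 and 6. The remaining 5 arrays, titled SD and also of series B, covered days 0, 2, 3, 5 and 6, and on days 2, 3, 5 and 6 their channels held the induced and uninduced RNA the other way round. All groups were the same cell line, and the labels did not say whether arrays came from separate cultures, so the spread given here is between arrays and may be technical.

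Metallothioneins are small cysteine-rich proteins that bind zinc, copper and toxic metals, and their transcription is switched on by the zinc-sensing factor MTF-1 at metal response elements. Peroxiredoxin 2 reduces hydrogen peroxide with electrons from thioredoxin and is one of the most abundant proteins of red cells. Mice that lack it develop hemolytic anemia with oxidised hemoglobin in their red cells. Maturing erythroid cells fill with hemoglobin and iron, and both can give rise to peroxide and other reactive oxygen species.

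Values are log2 ratios with the median of each array subtracted, so that 0 is the typical probe of that array. The likely direction is induced over uninduced RNA. An alpha-globin probe (Hba-ps3) lay between 3.87 and 6.38 on the 6 arrays of days 4, 5 and 6 in series A and B, against 0.51 and 0.67 on the day 0 arrays, and at -4.25, 0.94, -2.78 and -4.20 on the SD arrays of days 2, 3, 5 and 6. That probe ran in opposite directions on 3 of these 4 SD arrays and on the matching arrays of series B. Whether the SD values had been turned before deposit was not given, so differences between days were computed on the 13 other arrays, and SD values are shown as deposited. On those 13 arrays between 29.2% and 72.0% of the probes had a value. Spots carried no intensity in the deposited table, so the level of a transcript could not be given and the number of arrays limited the precision. Of 13 erythroid marker symbols 10 were on the array, and 5 of these probes had a value on at least 11 of the 13 arrays. The same held for 0 of 6 T cell, 0 of 4 B cell, 0 of 4 myeloid and 0 of 5 fibroblast marker probes, for 1 of 4 mast cell probes and for 1 of 3 megakaryocyte probes. The median late minus day 0 difference was 1.65 log2 over the 8 erythroid probes with values in both groups. Of these, Myb at -2.49 and Epor at -0.08 lay below 0 and the others above it. Over 3 megakaryocyte probes the median was 0.07, with Itga2b at 2.49, Pf4 at 0.07 and Gp9 at -0.47. The median lay between -0.68 and 0.67 over the 2 or 3 T cell, B cell, myeloid and fibroblast probes of each list. Over 3 mast cell probes it was -3.14 log2, with Mcpt2 at -3.14, Ndst2 at -3.25 and Kit at 0.66. The part of these marker genes in the differences of Mt2 and Prdx2 was not tested.

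The bases upstream of both genes are shown because both probes read above the day 0 array of their own series on every induced array of series A and B that measured them. RefSeq places both genes on mouse chromosome 8 (GRCm38.p6, plus strand), and the 250 bases before each start are given 5′ to 3′. For Mt2 (chr8:94172368-94172617) the capitals mark matches to the metal response element core, TGCACNC or TGCGCNC, and to the antioxidant response element core, TGACNNNGC. For Prdx2 (chr8:84969372-84969621) they mark CACCC boxes, the motif read by erythroid Krüppel-like factors.
Mt2: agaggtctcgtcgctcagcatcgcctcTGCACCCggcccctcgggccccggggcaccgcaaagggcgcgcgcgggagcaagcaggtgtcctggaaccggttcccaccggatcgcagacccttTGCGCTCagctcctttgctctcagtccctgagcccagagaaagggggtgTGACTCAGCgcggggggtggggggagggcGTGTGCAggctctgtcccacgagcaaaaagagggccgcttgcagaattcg
Prdx2: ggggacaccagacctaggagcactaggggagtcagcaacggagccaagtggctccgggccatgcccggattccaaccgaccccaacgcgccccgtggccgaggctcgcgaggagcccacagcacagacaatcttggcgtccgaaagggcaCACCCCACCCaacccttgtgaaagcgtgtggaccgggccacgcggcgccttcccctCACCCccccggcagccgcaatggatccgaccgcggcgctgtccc
Both strands were searched. Mt2 had 3 matches to the metal response element core, starting 223, 128 and 50 bases before the start, the last on the minus strand, and 1 to the antioxidant core, 79 bases before it. It also had 3 CACCC matches, which are left in lower case except where the one at 221 bases lies inside the first metal response element. Prdx2 had 3 CACCC matches, at 100, 95 and 44 bases, and 0 matches to either of the other cores. The erythroid GATA letters GATAA were found in neither window. Of 32851 upstream windows of this length in the table, 21.4% held the metal response element core, 10.2% the antioxidant core, 52.0% a CACCC box and 22.6% GATAA. These are matches of letters, and no binding was measured.

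Mt2 read lowest on day 0 and highest on day 5. Its centred log2 ratios in series A were -1.22 (day 0), 0.56 (day 1), -0.87 (day 2), 1.63 (day 3), 1.65 (day 4), 2.25 (day 5) and -0.55 (day 6). Those in series B were -2.30 (day 0), -1.22 (day 2), -1.01 (day 3), -0.54 (day 4), 0.89 (day 5) and 0.053 (day 6). Both series therefore peaked on day 5 and came down by day 6, and series A lay above series B on every shared day except day 6. The 6 late arrays (days 4, 5 and 6), from -0.55 to 2.25, did not overlap with the day 0 arrays, at -2.30 and -1.22. Over all induced days the groups met without overlap, since day 2 of series B lay at the same value to 2 decimals as day 0 of series A. The share of all probes that separate from day 0 in this way was not computed. The separation therefore only describes a gene chosen with these values known.

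Ordered by the mean of the arrays, Mt2 was highest on day 5 (1.57 ± 0.97, SD, n = 2), then day 1 (0.56, n = 1), day 4 (0.55 ± 1.55), day 3 (0.31 ± 1.87), day 6 (-0.25 ± 0.43), day 2 (-1.04 ± 0.25) and day 0 (-1.76 ± 0.76), each with n = 2 apart from day 1. No neighbours in that order lay farther apart than the pooled spread between arrays of a day, 1.13 log2 on 6 degrees of freedom. From the highest to the lowest day the distance was 3.33 log2.

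Prdx2 also read low on day 0, and its highest days differed between the series. Its centred log2 ratios in series A were -1.22 (day 0), 0.50 (day 1), 0.39 (day 2), 0.83 (day 4) and -0.16 (day 6), and days 3 and 5 had no value. Those in series B were -4.43 (day 0), -0.56 (day 2), -2.99 (day 3), -1.43 (day 4), -2.33 (day 5) and -0.57 (day 6). Series A was highest on day 4, while in series B days 2 and 6 were highest and nearly equal. Series B stayed below 0 on all 6 arrays, while series A was above 0 on 3 of its 4 induced arrays. The 3 early arrays (days 1 and 2), from -0.56 to 0.50, lay above both day 0 arrays, and the share of all probes that do so was not computed. The 5 late arrays, from -2.33 to 0.83, overlapped with the day 0 arrays, at -4.43 and -1.22.

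By day means the order for Prdx2 was day 1 (0.50, n = 1), day 2 (-0.085 ± 0.68, SD, n = 2), day 4 (-0.30 ± 1.60, n = 2), day 6 (-0.36 ± 0.29, n = 2), day 5 (-2.33, n = 1), day 0 (-2.83 ± 2.27, n = 2) and day 3 (-2.99, n = 1). One step in this order, the 1.96 log2 between day 6 and day 5, was larger than the pooled spread between arrays of a day, 1.43 log2 on 4 degrees of freedom. Day 1 rested on series A alone and days 3 and 5 on series B alone, which read lower than series A on each of the 4 days when both measured Prdx2. The step therefore compares a mean of both series with 1 array of the lower series, and series and day cannot be told apart there.

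**Figure D1:**
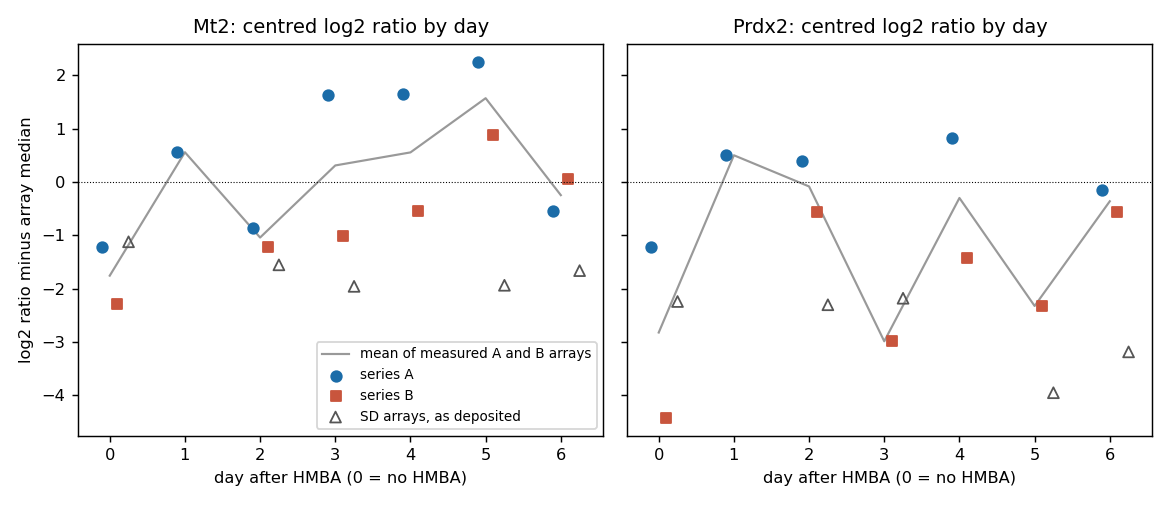
Centred log2 ratio of Mt2 (left) and Prdx2 (right) against the day after HMBA. Circles are arrays of series A, squares arrays of series B, open triangles the SD arrays as deposited, and the line joins the means of the measured A and B arrays. Mt2 peaks on day 5 at 2.25 and 0.89 in series A and B, and Prdx2 has its lowest value, -4.43, on day 0 of series B.

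The rank of each probe among all probes of an array does not use the log2 scale. Mt2 stood above 75.6% and 27.4% of the measured probes on days 1 and 2 of series A and above 26.7% on day 2 of series B. Late, it stood above 88.6%, 97.2% and 30.9% of the measured probes on days 4, 5 and 6 of series A and above 37.2%, 70.1% and 51.2% on those of series B, against 9.51% and 8.39% on day 0 of series A and B. Prdx2 stood above 73.0% of probes on day 1 of series A and above 62.9% and 38.6% on day 2 of series A and B, against 9.51% and 0.442% on day 0. Its late ranks were 70.9% and 44.4% on days 4 and 6 of series A and 24.1%, 11.3% and 38.4% on days 4, 5 and 6 of series B, and on day 3 of series B it was at 5.78%. Days 3 and 5 of series B were thus close to or below the day 0 rank of series A, though above that of series B. Both probes were thus near the bottom of arrays on which both channels held uninduced RNA. On day 0 of series A they held the same deposited ratio of 0.402, a value printed with 3 decimals that 6 probes of that array shared.

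The genes were chosen with their differences from day 0 known, so these are given as a description with no test of either gene. Late minus day 0, Mt2 differed by 2.38 log2 (SE 0.84), a 5.22-fold difference, with means of 0.62 over the 6 late arrays and -1.76 over the 2 day 0 arrays. Its early difference was 1.52 log2 (SE 0.97). Prdx2 differed by 3.03 log2 early (SE 1.05), an 8.18-fold difference, with means of 0.11 over the 3 early arrays and -2.83 on day 0, and by 1.83 log2 late (SE 0.95), with a late mean of -0.73. The day contrasts weigh each day equally, so they need not equal the differences of these array means. Day 1 had an array in series A only. With the series letter as a replicate block Prdx2 was at 2.61 early and 2.11 late, and Mt2 at 1.22 early and 2.38 late. Of the 1211 probes that could be fitted late, 6 lay as high as Mt2 or higher and 22 as high as Prdx2, each gene included. Of the 1060 fitted early, 3 lay as high as Prdx2 or higher and 92 as high as Mt2, again each gene included.

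How much of each difference came from day 0 differed between the genes. Set against 0 in place of day 0, the late value of Mt2 was 0.62 log2 and its early value -0.24, while Prdx2 was at -0.997 late and 0.21 early. The direction of Prdx2 late and of Mt2 early was therefore that of the day 0 arrays. The 2 day 0 arrays lay 3.21 log2 apart for Prdx2, the largest distance between series on any day when both measured it, and 1.07 log2 apart for Mt2. With only the A array as day 0, Prdx2 was at 1.43 early and 0.23 late, and with only the B array at 4.64 early and 3.43 late. Mt2 was at 1.85 late and 0.98 early with only the A array, and at 2.92 late and 2.05 early with only the B array.

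Taken within each series, so that a constant offset between the series drops out, the mean differences of Mt2 were nearly equal, while several single days differed. Its late arrays averaged 2.34 log2 above day 0 in series A (n = 3) and 2.43 in series B (n = 3), and its early arrays 1.07 (n = 2) and 1.08 (n = 1). The early mean took days 1 and 2 in series A but day 2 alone in series B. In series A and B, day 2 lay 0.35 and 1.08 above day 0 and day 3 2.85 and 1.28. Day 4 lay 2.87 and 1.76 above it, day 5 3.48 and 3.18, and day 6 0.67 and 2.35. Single induced arrays lay 0.35 to 3.48 log2 above day 0 in series A (6 of 6) and 1.08 to 3.18 in series B (5 of 5). Prdx2 lay above day 0 on 4 of 4 measured induced arrays of series A, by 1.06 to 2.05 log2, and on 5 of 5 of series B, by 1.44 to 3.86. Its means were 1.67 early (n = 2) and 1.56 late (n = 2) in series A, and 3.86 early (n = 1) and 2.99 late (n = 3) in series B. All arrays of a series share 1 day 0 array, so these counts are not independent of each other. The share of all probes with such counts was not computed.

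**Figure D2:**
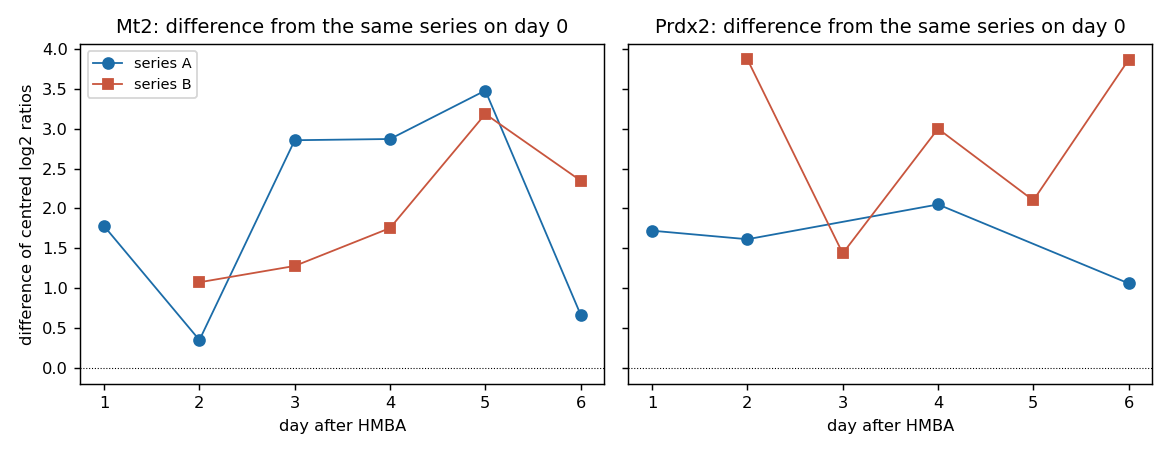
Difference of each induced array from the day 0 array of its own series, in centred log2 ratios, against the day after HMBA, for Mt2 (left) and Prdx2 (right). Circles are series A and squares series B, with lines joining measured days. All points lie above 0, and Mt2 reaches 3.48 and 3.18 on day 5 of series A and B.

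From the early to the late days the 2 genes differed in sign, each with an error close to the size of its difference. Late minus early, Mt2 differed by 0.87 log2 (SE 0.76) and Prdx2 by -1.20 log2 (SE 0.87). The Prdx2 value was -0.49 with the series letter as a replicate block and -0.16 with the SD arrays turned and averaged in. The Mt2 value was 0.41 with the SD arrays averaged in as deposited and 0.50 when the A array of day 4 was left out. Within series, Mt2 was 1.27 log2 higher late than early in series A and 1.35 in series B. Prdx2 differed by -0.11 in series A and by -0.88 in series B. The difference between the genes was not tested, because both time courses had been seen when they were chosen.

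The SD arrays gave Mt2 values of -1.12, -1.56, -1.96, -1.94 and -1.66 on days 0, 2, 3, 5 and 6, and Prdx2 values of -2.24, -2.30, -2.18, -3.95 and -3.19. Read as deposited, Mt2 was lower on all 4 induced days than on day 0, and Prdx2 on 3 of 4. If these arrays read the opposite way to series B, 0.5 times the difference of the B and SD arrays of a day carries the change with HMBA, and if they had already been turned, 0.5 times their sum does. For Mt2 the difference gave -0.59, 0.17, 0.47, 1.41 and 0.86 on days 0, 2, 3, 5 and 6, and the sum gave -1.71, -1.39, -1.49, -0.53 and -0.81. For both measures the 4 induced days lay above day 0 and day 5 was the highest. Both contain the same B arrays, so their agreement is no independent check. On day 5 the difference lay 2.00 log2 above day 0 and the sum 1.18. Under either reading only 1 of the 2 carries the change, so the other measure moved as well, and why was not tested. Day 0, with uninduced RNA in both channels, holds no change with HMBA.

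For Prdx2 the difference gave -1.09, 0.87, -0.40, 0.81 and 1.31 on days 0, 2, 3, 5 and 6, and the sum gave -3.34, -1.43, -2.59, -3.14 and -1.88. The 4 induced days again lay above day 0 on both, but the highest day was day 6 by the difference and day 2 by the sum. By the difference day 2 came next, above day 5. Above day 0, the difference and the sum lay at 1.96 and 1.90 log2 on day 2 and at 1.91 and 0.20 on day 5. The measure that does not carry the change thus moved here too. The labels do not settle which reading applies. The alpha-globin probe read -4.25, -2.78 and -4.20 on the SD arrays of days 2, 5 and 6, against 2.22, 5.97 and 3.87 on the B arrays, opposite in sign as the difference presumes, but on day 3 it read 0.94 against 2.07. On the SD arrays of days 2, 3, 5 and 6 adult beta-globin, Hbb-b2, read 1.05, -0.089, -0.86 and -3.11. On the B arrays it read 0.31, 0.45, 0.36 and 2.22, so day 2 alone had the same sign. The erythroid marker Alas2 read -2.72 on the SD array of day 6 against 3.25 on the B array. Each day had 1 pair of B and SD arrays, so the differences and sums have no replicate check, and they draw on the B arrays already described.

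**Figure D3:**
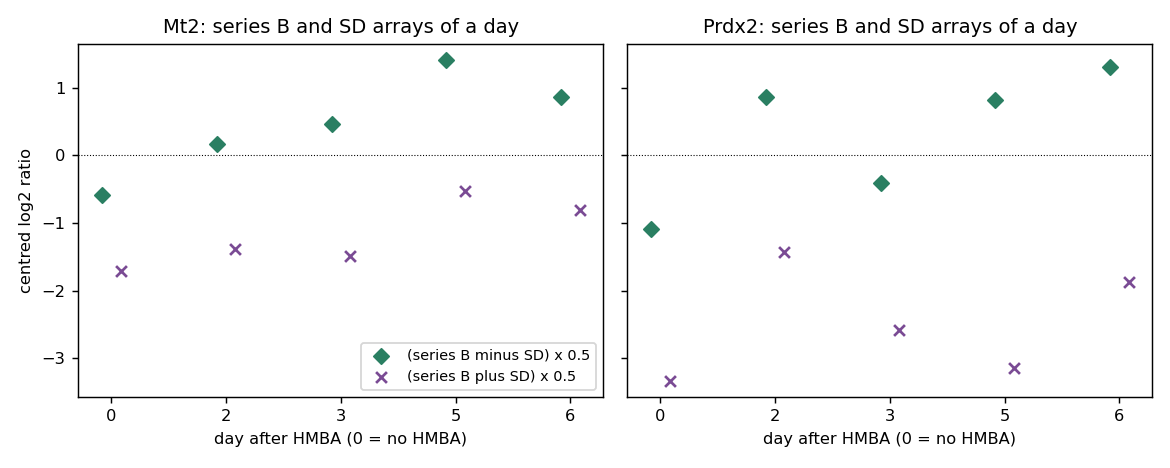
Series B and SD arrays of the same day combined, in centred log2 ratios, for Mt2 (left) and Prdx2 (right). Diamonds are 0.5 times B minus SD and crosses 0.5 times B plus SD, with days on the horizontal axis spaced evenly. In each set the lowest point is day 0, at -0.59 and -1.71 for Mt2 and -1.09 and -3.34 for Prdx2.

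Probes with the most similar course were sought among those with 1 symbol and a value on every array that measured the gene. For Mt2 these were Ftl1, which encodes the ferritin light chain of iron storage (Pearson r = 0.71, Spearman rho = 0.61 over 13 arrays), the adult beta-globin Hbb-b2 (0.66 and 0.76), the transporter gene Slc6a20b (0.65 and 0.64), the glycolytic Gapdh (0.64 and 0.66) and Emc8, a subunit of a membrane protein insertase (0.63 and 0.58), from 252 probes. Within the 7 arrays of series A their r lay between 0.48 (Slc6a20b) and 0.75 (Hbb-b2), and within the 6 of series B between 0.35 (Emc8) and 0.90 (Ftl1). Low day 0 values in series A and B were shared by Ftl1 (-0.87 and -2.22), Gapdh (-1.62 and -2.74) and Emc8 (-1.07 and -1.69). Hbb-b2 lay at 0.31 and -0.25 there, and Slc6a20b at 0.57 and -0.93.

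For Prdx2 the closest were Skp1, a subunit of SCF ubiquitin ligases (r = 0.92, rho = 0.86 over 11 arrays), Eif4ebp1, a repressor of cap-dependent translation (0.92 and 0.92), Pold2, a DNA polymerase delta subunit (0.91 and 0.94), the RNA-binding protein gene Hnrnpu (0.90 and 0.95) and Wbp2 (0.90 and 0.79), from 327 probes. Of these 5, Eif4ebp1 and Hnrnpu lay below -4 on day 0 of series B, at -4.28 and -4.48, as did Prdx2. The probe of Skp1 (M005122_01) directly precedes that of Prdx2 (M005123_01) in probe number. The place of the probes on the slide was not known, so its part in the likeness was not tested. The arrays share one control RNA design, their own spread and their series, and each r is a description of these arrays only.

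Between Mt2 and Prdx2 themselves r was 0.58 and rho 0.49 over the 11 arrays that measured both. Without the 2 arrays farthest from the median of Prdx2, days 0 and 3 of series B, r was 0.20 and rho 0.20, so the pooled value rested on those arrays. Within the 6 arrays of series B r was 0.49 and rho 0.26, and series A had 5 arrays with both genes, under the 6 for which a correlation is given here. On those 5 arrays, which hold neither array left out above, both genes were highest on day 4, then on day 1, and lowest on day 0, and only days 2 and 6 changed places.

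The other genes of redox and metal protection were read from lists of 120 symbols, of which 69 had a probe. Probes with a late value numbered 43, of which 26 were higher and 17 lower than on day 0, with a median late difference of 0.32 log2. Over all 2491 probes with a late value 1478 were higher and the median was 0.16. Of the 24 list probes with enough values for testing 0 passed an adjusted p under 0.05 in limma late, where 0% of all 1211 tested probes passed, and 1 had an unadjusted p under 0.05, where 2.31% of all did. Early, 25 of 36 were higher and the median was 0.35. Over all 2588 probes with an early value 1376 were higher and the median was 0.07. Of 22 tested early 0 passed the adjusted threshold, where 0% of 1060 did, and 0 had an unadjusted p under 0.05, where 3.49% of all did. With only the A array as day 0 the late median was -0.18, with 16 of 39 probes higher. Over all probes it was 0.062, with 1297 of 2404 higher. With only the B array the list median was 0.68 and that of all probes 0.37. Leaving out the A arrays of days 4, 5 and 6 in turn gave late medians of 0.10, 0.041 and 0.14. Those of all probes were 0.061, 0.13 and 0.18. The early median was 0.15 with only the A array as day 0, 0.68 with only the B array and 0.65 when the B array of day 2 was left out. Over all probes these early medians were 0.013, 0.17 and 0.026.

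Among peroxiredoxins and thioredoxins, 4 of 6 probes were higher late. Txn2, the mitochondrial thioredoxin, differed by 1.83 log2 (SE 0.96) and Txnrd1, the reductase that recharges cytosolic thioredoxin, by 1.43 log2 (SE 0.71), above the day 0 mean on 4 of 4 and 6 of 6 late arrays. Txn1, the thioredoxin that serves Prdx2, was at -0.43 (SE 0.68) and the mitochondrial peroxiredoxin Prdx3 at -0.29 (SE 0.70), each within its own error. Txn2 rested on low day 0 values of -1.57 and -4.09 in series A and B, much as Prdx2 did. Prdx1, Prdx4, Prdx5 and Prdx6 had no probe under those symbols and are not analysed here.

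Of the glutathione system 4 of 13 probes were higher late, with a median of -0.23 log2. Gstm3 and Gstt1, transferases that attach glutathione to reactive compounds, differed by 0.95 (SE 0.86) and 0.74 (SE 1.15), and Gpx1, the main cytosolic glutathione peroxidase, by -0.10 (SE 0.71). Glrx3, a glutaredoxin that handles iron-sulfur clusters, was at -0.83 (SE 1.26), and Gclc, the catalytic subunit of the first step of glutathione synthesis, at -1.12 (SE 1.35). With the series letter as a replicate block Glrx3 was at -0.036 and Gclc at -0.60.

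Superoxide and peroxide enzymes were higher late for 7 of 9 probes. Sod1, the cytosolic copper and zinc superoxide dismutase, differed by 1.87 log2 (SE 0.84), with means of -0.61 late and -2.49 on day 0, and Park7, a redox-sensitive chaperone, by 1.17 (SE 1.23), with means of -1.63 and -2.87. The selenoprotein genes Selenow and Selenok were at -1.43 (SE 0.97) and -0.76 (SE 1.13). Cat, which encodes catalase, had 5 values, none of them on day 0, with a late mean of -1.32 over 3 arrays.

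Of genes for zinc and copper handling 5 of 6 probes were higher late. Atox1, the chaperone that delivers copper to the secretory pathway, differed by 2.22 log2 (SE 1.70) against 1 day 0 array, that of series B at -3.48, and by 0.22 log2 with the series letter as a replicate block, and Slc39a7, a zinc channel of the endoplasmic reticulum, by 0.74 (SE 0.81). The zinc transporter genes Slc30a3 and Slc30a7 were at 0.20 (SE 0.76) and -0.80 (SE 1.04). Mtf1, the transcription factor of the metallothionein genes, had values on 2 arrays only, days 4 and 6 of series A, with a mean of -0.36. Mt1, the close paralog of Mt2, had no probe under that symbol, and whether its transcript also binds the Mt2 probe was not known. The same holds for Prdx2, of which RefSeq lists the pseudogenes Prdx2-ps1 on chromosome 1 and Prdx2-ps2 on chromosome 4.

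Of heme and ferritin protection 1 probe, Ftl1, had values on day 0 and on each of days 4, 5 and 6, and it differed by 2.09 log2 (SE 0.81, higher on 6 of 6 late arrays), with means of 0.54 late and -1.54 on day 0, and it is the list probe with an unadjusted p under 0.05 (adjusted p = 0.9999 in limma). Hmox1, the inducible heme oxygenase, had no day 0 value and averaged -0.46 over 3 late and -0.52 over 3 early arrays. Among regulators 5 of 8 probes were higher. Nfe2, an erythroid partner of small Maf proteins, differed by 1.27 log2 (SE 1.55, and by 2.08 with the series letter as a replicate block) and Hif1a, the oxygen-sensing factor, by 0.91 (SE 0.98). The heme-sensing repressor Bach1 was at -0.52 (SE 1.08) and Nfe2l1, a factor of the proteasome response, at -0.21 (SE 1.18).

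**Figure D4:**
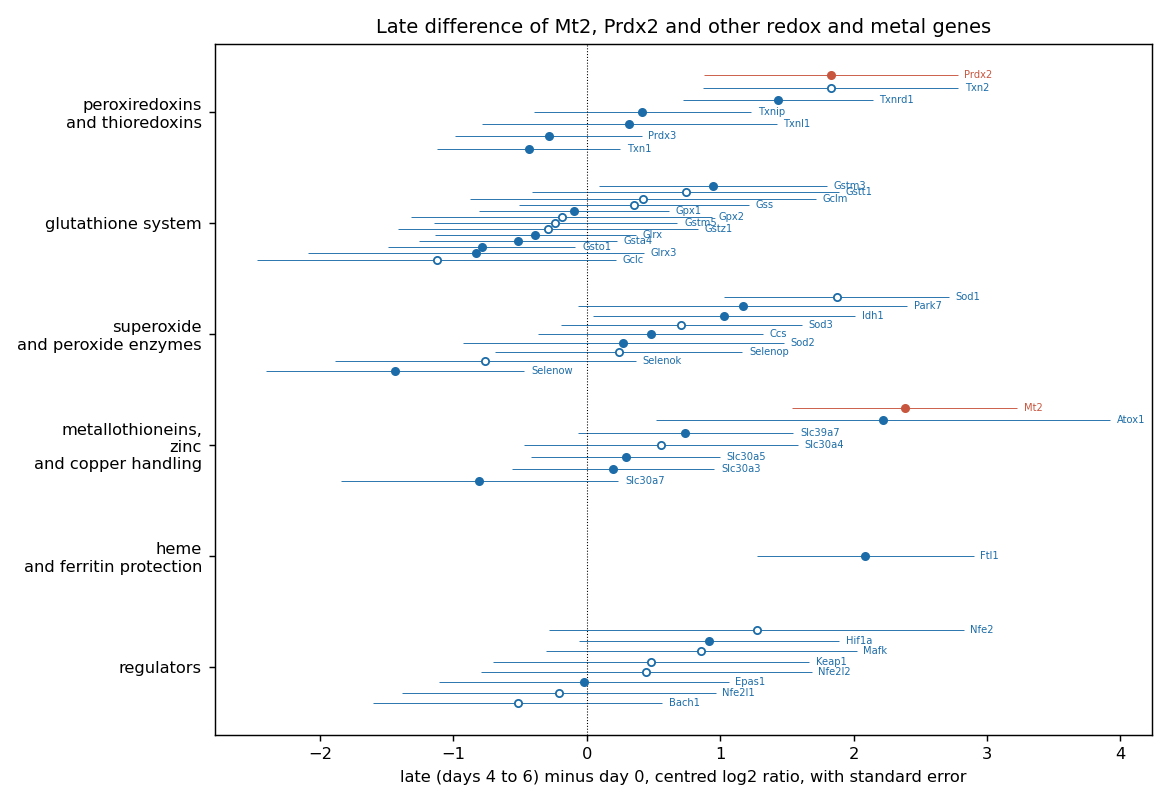
Late minus day 0 in centred log2 ratios for Mt2 and Prdx2 (red) and the other genes of the 6 lists with a late value (blue), one row per probe. Points are estimates and lines their standard errors, with filled points for probes that had enough values for testing. Mt2, at 2.38, has the highest value shown, and 26 of the 43 blue points lie above 0.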

How the data were processed

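The deposited table held log2 ratios of 6868 probes on 18 arrays, a unit recognised from its values; the sources used here do not name the dyes, the image analysis or any normalization by the authors. Array medians were not 0 as deposited, so each array was centred on its median. Probes were named from the platform annotation, where 6108 had 1 symbol, 41 several and 719 none. The 13 arrays other than SD were fitted as 7 day groups without further terms in limma 3.58.1 (R 4.3.3), with 1 spread shared by all groups, on probes measured on 11 or more of these 13 arrays, day 0 included at least once. Contrasts were late (mean of days 4, 5 and 6) and early (mean of days 1 and 2), each minus day 0, and late minus early, with Benjamini-Hochberg adjustment over all probes at 0.05. List members below that minimum were fitted without it and not tested. Day 1 had 1 array and was assumed to vary like the other days. The steps were tested on simulated data.

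Mt2, Prdx2 and the lists were chosen with earlier results of these data known. Other genes were named by a rule: the 2 highest and 2 lowest late differences of each list among probes with at least 1 day 0 and 3 late arrays, and Mt1, the peroxiredoxins, Sod1, Cat, Gpx1, Mtf1 and Hmox1 wherever measured. Likeness took the 5 highest Pearson correlations. The B and SD pairs were added after seeing the data. Alternatives covered centring, normalization, the ratio against 0, the series letter as a block, the minimum of arrays, SD arrays averaged in, and each array left out. Upstream sequences were taken from RefSeq (GRCm38.p6), where 2 of 2 genes matched. Whether the letters A and B pair arrays of different days was checked by the correlation across probes of the A minus B difference between days, which was over 0.1 for 14 of 15 pairs of days (median 0.265, -0.0098 to 0.41). The letters were to count as a pairing only with all pairs over 0.1, so the main values have no term for the series, although its arrays deviated together on most days. Values with the letter as a block are given beside several genes, though not for all that shifted. With the block, late values were 1.32 for Txn2, 1.61 for Park7 and 0.21 for the list median. Early values were 2.61 for Prdx2 and 1.22 for Mt2, while Mt2 late was unchanged at 2.38.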

Additional observations from a re-analysis of the deposited data

Results flagged for a closer look

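The zinc transporter gene Slc30a3 lay on opposite sides of day 0 in the 2 series. Its late arrays averaged 1.18 log2 above day 0 in series A (n = 3) and -0.79 in series B (n = 3), with every late array of a series on the same side. Its day 0 arrays lay at 0.78 in series A and 2.40 in series B. With only the A array as day 0 the late difference was 1.01 log2, and with only the B array -0.61. The sign thus depended on the day 0 array used, and the difference between the series was not tested.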

How the results depend on the processing

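The late and early differences of Mt2 and Prdx2 stayed above 0 without centring, with quantile normalization, with equal spread, with the series letter as a replicate block and with SD arrays averaged in either way. Late they lay between 1.62 and 2.62 log2 for Mt2 and between 1.05 and 2.27 for Prdx2, and with the replicate block Mt2 was at 2.38 and Prdx2 at 2.11. Ratios against 0 moved Mt2 to 0.62 late and -0.24 early and Prdx2 to -0.997 late and 0.21 early, because that setting leaves out the day 0 arrays. They also moved the list medians to -0.27 late and -0.26 early, against -0.0055 and -0.048 over all probes. Leaving out single arrays gave 1.85 to 2.92 late and 0.98 to 2.05 early for Mt2, 0.23 to 3.43 late and 1.43 to 4.64 early for Prdx2, and list medians of -0.18 to 0.68 late and 0.15 to 0.68 early. Late minus early stayed below 0 for Prdx2, at -1.42 to -0.16 over the settings and -1.58 to -0.83 over left-out arrays, and above 0 for Mt2, at 0.41 to 1.16 and 0.50 to 1.23. Without day 1 there was no early value, and without day 5 of series B no late value of Prdx2. With values required on all 13 arrays Prdx2 dropped out and the list median over 4 probes was 0.86 late.

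Limma called 0 probes in each contrast (28, 37 and 67 at an unadjusted p under 0.05 late, early and late minus early). Late it called 1, Hba-ps3, with the replicate block and when either array of day 3 was left out (0 to 1 over left-out arrays), and 309 against 0, a setting that leaves out the error of day 0. The 28 late probes became 66 after quantile normalization, 3 when the B array of day 0 was left out, 46 when that of day 4 was, 53 with equal spread, 46 with the replicate block, and 16 and 19 with SD arrays as deposited and turned. The 37 early ones became 127, 107, 60 and 1 after quantile normalization, with equal spread and with SD arrays as deposited and turned, and 0, 13 and 74 when the B array of day 0, the A array of day 2 or the B array of day 2 was left out. The 67 of late minus early became 127 and 111 after quantile normalization and with equal spread, 11 with SD arrays turned, 23 and 137 without the A or the B array of day 2, and 41 without the B array of day 5 or of day 6. Against 0 the counts were 500 late and 69 early. With values on all 13 arrays 290 probes were tested and the counts were 7, 16 and 23.

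Among the other named genes, signs turned as follows, and the cause was not tested. Against 0 late values were 0.55 for Txn1, 0.37 for Nfe2l1, 0.099 for Bach1, -0.0043 for Nfe2, -0.43 for Gstt1, -0.61 for Sod1, -1.001 for Txn2, -1.22 for Slc39a7, -1.26 for Atox1 and -1.70 for Park7. Without centring Gpx1 was at 0.14 and Nfe2l1 at 0.31. Slc30a3 was at -0.28 with quantile normalization and -0.070 with equal spread. Nfe2l1 was at 0.15 with the replicate block. With SD arrays averaged in as deposited Nfe2l1 was at 0.23 and Glrx3 at 0.077, and with them turned Gpx1 was at 0.053, Prdx3 at 0.37, Gstt1 at -0.069, Slc39a7 at -0.17 and Atox1 at -0.73. Over left-out arrays Gpx1 ran from -0.27 to 0.079, Slc30a3 from -0.61 to 1.01, Park7 from -0.41 to 2.75, Slc39a7 from -0.22 to 1.70, Slc30a7 from -1.74 to 0.13 and Nfe2l1 from -0.59 to 0.17. The signs of Park7, Slc39a7 and Slc30a7 turned when the B array of day 0 was left out, those of Slc30a3 when the A array of day 0 or 4 was, and those of Gpx1 and Nfe2l1 when the B array of day 4 was (Gpx1 also for the A array of day 0 and the B array of day 6).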
